A study of Drosophila melanogaster with 4 samples.

Results

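The right arm of chromosome 3 of Drosophila melanogaster, 3R, is described here through its regions enriched for H3K36me3, histone H3 carrying 3 methyl groups on lysine 36. Its members are every region that the deposited lists place on 3R, chosen by the arm's name alone and by no measured value. They number 930 of 4238 regions in replicate 1 (21.9%), 956 of 4320 in replicate 2 (22.1%) and 955 of 4468 in the series-level set (21.4%). Chromatin came from wild-type embryos of the Oregon-R strain, 14 to 16 h old, fixed with 1.8% formaldehyde. Enriched chromatin was sequenced in 2 ChIP libraries, each with an input library of its own that has no list here. No mutant or treated group was compared, so the comparisons set 3R beside the arms 2L, 3L and X of the same libraries, and replicate beside replicate. Nothing in the labels says that the replicates were collected separately, and their spread may then be technical only. Whole embryos mix many tissues, and a mark strong in a few cells and one weak in all cells cannot be told apart in such lists.

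In flies, H3K36me3 is laid down by the methyltransferase Set2, which travels with elongating RNA polymerase II, and it lies over the bodies of transcribed genes, most strongly towards their ends. It is therefore read as a mark of where transcription has passed, while silent chromatin carries other marks. The arm 3R holds both Hox complexes of the fly. The Hox genes among their members set segment identity along the body and are repressed by Polycomb proteins wherever they are not used. A gene table of genome release 6 placed all 13 complex genes looked up on 3R, in the order lab, pb, zen2, zen, bcd, Ama, Dfd, Scr, ftz, Antp, Ubx, abd-A and Abd-B. The region lists use FlyBase release 5, and positions are not carried between releases here. No region or empty stretch below is therefore assigned to a Hox gene or to any other gene, and all coordinates are those of release 5.

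Regions covered 5.31 Mb of the 27.9 Mb arm in replicate 1 and 4.95 Mb in replicate 2. The covered share of 3R was 19.0% in replicate 1 and 17.7% in replicate 2, a mean of 18.4% ± 0.905 (SD, n = 2). On the other arms it averaged 16.4% ± 0.915 on 2L, 17.2% ± 0.861 on 3L and 18.1% ± 1.11 on X (SD, n = 2 each). The libraries shift all arms together, so differences within a library are tighter than these SDs. 3R minus 2L was 1.96 ± 0.0102 percentage points and 3R minus 3L was 1.13 ± 0.0437 points, each far beyond the spread between replicates, while 3R minus X was 0.292 ± 0.208 points (SD, n = 2 each). That spread tells how alike the 2 lists are, not how uneven an arm is. Over blocks of 1 Mb the SD of covered share was 6.39 points on 3R, 6.65 on 2L, 6.92 on 3L and 6.11 on X. The place of 3R above 3L and X depended on counting the centromere ends, described below: without the 3 Mb nearest each centromere the shares were 18.1% on 3R, 16.9% on 2L, 18.4% on 3L and 18.8% on X. The values of 3L and X moved more than that of 3R, which stayed within its SD. In the series-level set, with whole arms, 3R had 19.57% and X 19.59%, so the place above X was lost there too. Regions of one library are not replicates, and with 2 libraries no test across samples was made, so no p-value is given for any value here. Depth is unknown, since the lists carry no counts of reads, and nothing was measured between regions.

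Single regions of 3R were close in width and score to those of the other arms. Their median width was 4672.5 bp in replicate 1 and 4322 bp in replicate 2, against 4583.5 and 4210 bp over 2L, 3L and X. The narrowest were 1321 and 1301 bp wide and the widest 24438 and 23615 bp. The deposited score, whose scale is not stated and which is used here only to rank regions within a list, had medians of 1.60 and 1.59 on 3R, against 1.56 and 1.57 on the 3 other arms. Wider regions tended to score higher, with a Spearman rho across the 930 regions of 0.716 in replicate 1 and across the 956 regions of 0.736 in replicate 2. Both measures come from the same library, and regions are not independent, so these coefficients are descriptions without a p.

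Coverage rose and fell along the arm in the same places in both libraries. In 1 Mb blocks numbered from the centromere, which lies at the low-coordinate end of 3R, the mean covered share ran from 7.95% to 32.7%, a 4.12-fold range over 28 blocks. The fullest blocks were 20000001 to 21000000 with 33.9% and 31.5% in replicates 1 and 2, 5000001 to 6000000 with 31.3% and 29.6%, and 1000001 to 2000000 with 30.1% and 28.3%. The emptiest were 26000001 to 27000000 with 8.51% and 7.38%, 22000001 to 23000000 with 10.1% and 9.57%, and 13000001 to 14000000 with 10.5% and 9.33%. Replicate 1 was the higher one in 28 of 28 blocks, by 0.465 to 2.43 points. That offset was small beside the range, and no block moved by more than 2 ranks between replicates. Full and empty blocks lay scattered along the arm, some next to each other and some in turn. Across neighbouring windows of 100 kb the correlation of coverage was 0.178 in replicate 1 and 0.172 in replicate 2, and with one window between them it was 0.0443 and 0.0536 (279 windows, a description without a p, since windows share their library).

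**Figure D1:**
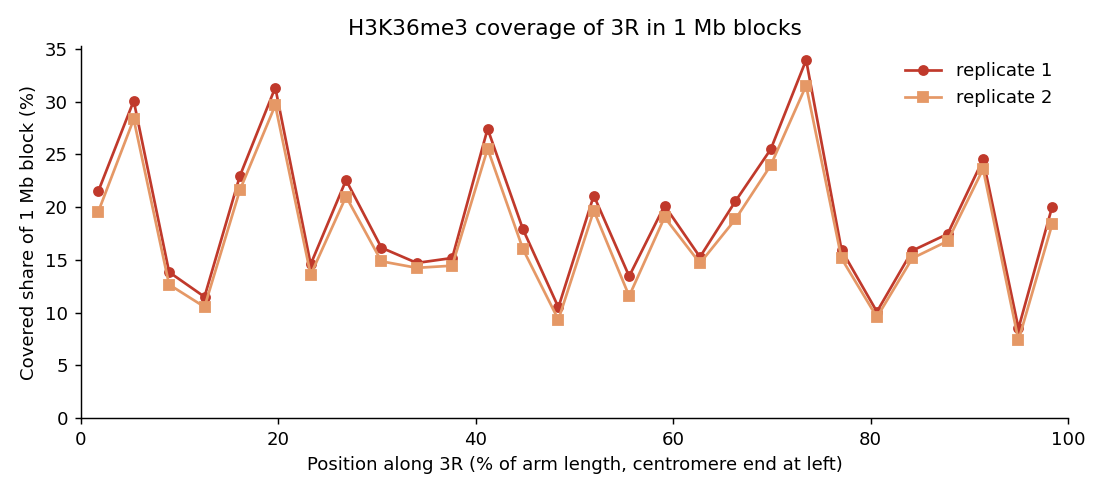
Covered share of each 1 Mb block of 3R (vertical axis, %) against the block's place along the arm (horizontal axis, % of arm length from the centromere end), with one line for each replicate. Both lines peak and dip in the same blocks, between 7.95% and 32.7% as means of the replicates.

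The centromere end of 3R was well covered, unlike that of the other arms. The 1 Mb nearest the centromere was covered to 20.5% ± 1.37 on 3R, against 10.9% ± 0.978 on 2L, 3.45% ± 0.798 on 3L and 6.82% ± 0.551 on X (SD, n = 2 each). The replicate values on 3R, 21.5% and 19.6%, lay above every value of the other arms there, the highest being 11.6% on 2L. Over the nearest 2 Mb the shares were 24.9% ± 1.30 on 3R, 12.6% ± 1.11 on 2L, 6.80% ± 1.24 on 3L and 7.75% ± 0.554 on X (SD, n = 2 each). In the third of each arm nearest its centromere, 3R again lay above the other arms, with 19.6% ± 0.963 on 3R, 13.0% ± 1.03 on 2L, 15.4% ± 1.00 on 3L and 18.8% ± 1.18 on X (SD, n = 2 each). The difference from X was small but had the same sign in both libraries, with 20.3% and 18.9% on 3R and 19.6% and 17.9% on X. The first regions of 3R started at 7593 in replicate 1 (3702 bp, score 0.944) and at 8660 in replicate 2 (2096 bp, score 0.686), close to the first base of the arm. How far the sequence of each arm runs towards its centromere in release 5 was not examined here.

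The telomere end of 3R, by contrast, was the sparser one. The outermost 2 Mb were covered to 13.3% ± 0.960 on 3R, against 18.7% ± 0.845 on 2L, 25.6% ± 1.14 on 3L and 21.0% ± 1.26 on X (SD, n = 2 each). Over the outermost 5 Mb 3R had 16.9% ± 0.728 and X 17.1% ± 1.04 (SD, n = 2 each), and their order differed between replicates, with 17.4% and 16.4% on 3R and 17.8% and 16.3% on X. The last region of 3R was narrow and low, from 27882802 to 27884669 in replicate 1 (1868 bp, score 0.366) and from 27882861 to 27884507 in replicate 2 (1647 bp, score 0.602). It ended 20384 and 20546 bp before the end of the sequence. The series-level set gave a wider last region of higher score there, from 27878272 to 27884736 (6465 bp, score 1.30). The third of 3R in its middle was covered to 17.4% ± 0.952 and the third nearest the telomere to 18.2% ± 0.800 (SD, n = 2 each). In each replicate the third nearest the centromere was the fullest, at 20.3% and 18.9%, and that in the middle the emptiest, at 18.0% and 16.7%.

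**Figure D2:**
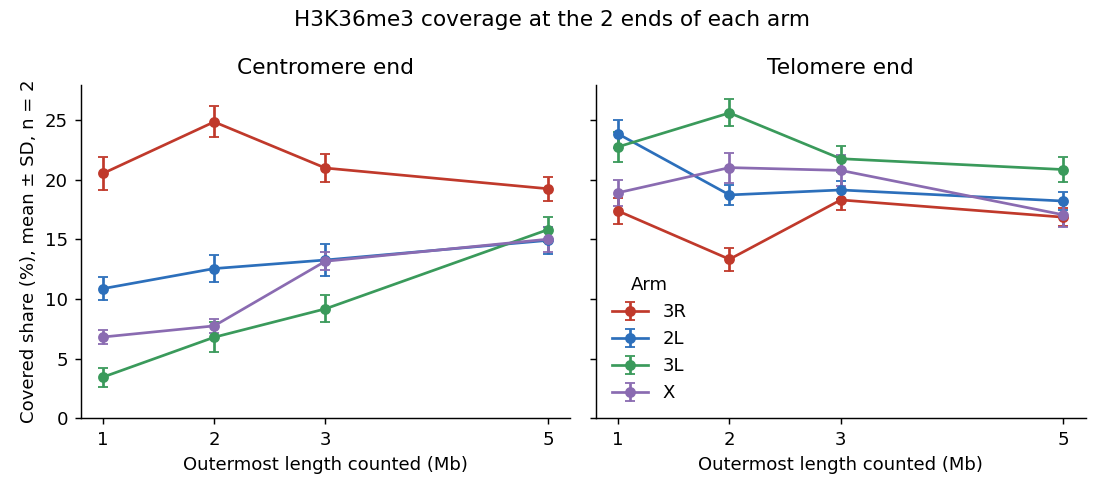
Covered share (vertical axis, %, mean with SD over 2 replicates) of the outermost 1, 2, 3 and 5 Mb (horizontal axis) at the centromere end (left) and the telomere end (right) of 3R, 2L, 3L and X. At the centromere end 3R stands above the other arms, at 20.5% of the outermost 1 Mb, and at the telomere end its mean is the lowest for each length shown, with error bars that overlap those of X at 1 and 5 Mb and those of 2L at 3 and 5 Mb.

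Long empty stretches took up much of the arm, but few of them were very long. Between the joined regions of both replicates, 3R had 61 gaps of 100 kb or more, which added up to 10.0 Mb or 35.9% of the arm. The shares were 45.6% on 2L, 36.7% on 3L and 44.0% on X. The order of 3R and 3L turned when replicate 2 was taken by itself (41.0% on 3R and 39.1% on 3L). It turned in the series-level set too (35.5% and 35.0%), and under other settings given below. Gaps of 200 kb or more were scarcer on 3R, with 11 of them covering 9.45% of the arm, against 20 covering 23.8% of 2L, 14 covering 16.6% of 3L and 13 covering 16.9% of X. The share in such gaps in each replicate alone was 9.46% and 9.62% on 3R. The lowest value of another arm was 16.6% on 3L in replicate 1. The threshold of 200 kb had been planned only as an alternative to 100 kb. The longest gap measured 349 kb on 3R, against 511 kb on 2L, 448 kb on 3L and 500 kb on X. In windows of 100 kb the same difference was small, with 44 of 279 windows of 3R free of any region (15.8%), against 21.3% on 2L, 19.2% on 3L and 17.9% on X.

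**Figure D3:**
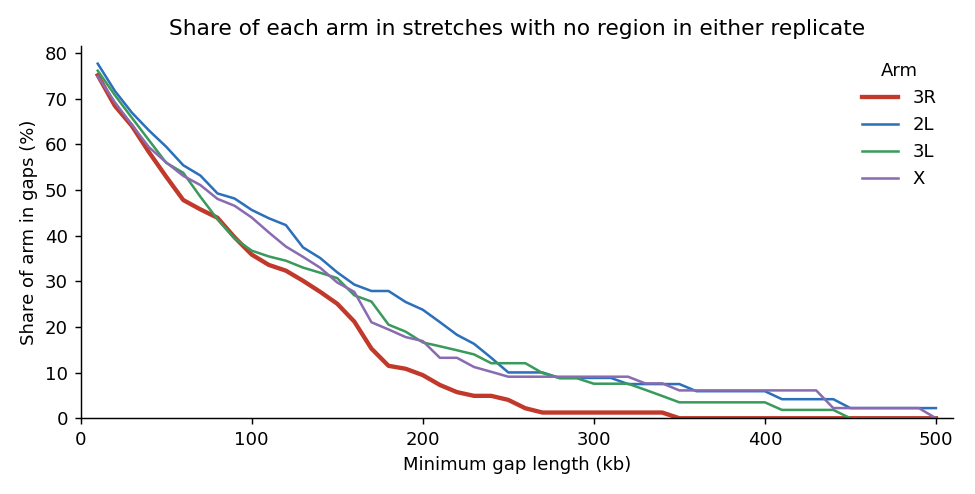
Share of each arm (vertical axis, %) lying in stretches with no region in either replicate that are at least as long as the length on the horizontal axis (kb), for 3R, 2L, 3L and X. The 3R curve runs below the others from 100 to 440 kb, stands at 9.45% for gaps of 200 kb or more and reaches 0 after its longest gap of 349 kb.

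The longest gaps were sharply bounded by the same regions in both libraries. The longest ran from 23794155 to 24143378. On its centromere side stood a region 5244 and 5247 bp wide in replicates 1 and 2 (scores 2.10 and 2.03), and on its telomere side one of 7784 and 7687 bp (scores 2.03 and 1.94). The gap from 6723044 to 6983715 (261 kb) lay instead between narrow regions of low score, of 2394 and 2410 bp (scores 0.576 and 0.916) before it and of 2107 and 2159 bp (scores 0.496 and 0.816) after it. The gap from 6241992 to 6500682 (259 kb) had a region of 3316 and 3050 bp before it (scores 1.45 and 1.31) and one of 2527 and 2036 bp after it (scores 0.691 and 0.786). The gap from 23118460 to 23371940 (253 kb) stood between regions of high score, of 9360 and 8974 bp (scores 2.13 and 1.77) and of 7322 and 7352 bp (scores 2.20 and 2.26). The fifth, from 8541148 to 8787632 (246 kb), followed a region of 3048 and 3053 bp (scores 1.17 and 1.42) and preceded one of 2133 and 2045 bp (scores 0.522 and 0.747).

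Regions beside a long gap were thus of mixed kind. Counted within each list by its own gaps of 100 kb or more, which numbered 62 in replicate 1 and 70 in replicate 2, the 118 bordering regions of replicate 1 were 3979.5 bp wide at the median and scored 1.59, against 4848.5 bp and 1.61 among the 812 others. In replicate 2 the 133 bordering regions measured 3691 bp and scored 1.55 at the median, against 4478 bp and 1.59 among the 823 others. The lower quartiles of score lay further apart than the medians, at 0.787 against 1.07 in replicate 1 and at 0.939 against 1.15 in replicate 2.

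Between the long gaps lay 62 stretches that held all the regions, 64.1% of the arm in all. Within them 29.6% of the sequence was covered in replicate 1 and 27.6% in replicate 2, more than on the whole arm because the long gaps are left out. Their median length was 209 kb, and none reached 1 Mb. The longest, from 20343800 to 21319455 (976 kb), held 55 regions in each replicate and was covered to 32.1% and 29.6%. Other full stretches, chosen here after their values were seen, ran from 19505501 to 20185566 (680 kb, 44.7% and 42.1% covered), from 5063225 to 5634659 (571 kb, 43.3% and 41.7%) and from 953426 to 1686594 (733 kb, 41.0% and 38.6%). The fullest 100 kb window of the arm, 1400001 to 1500000, lay in the last of these and was covered to 73.5% and 69.6%. Some stretches were sparse, as was that from 7947073 to 8045852 (98.8 kb, 7.29% and 5.60% covered). At the other extreme of length, 6 stretches were 10 kb long or less, each an enriched island of 1 or 2 regions between long gaps.

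The spacing of regions was uneven, with many close pairs beside the long gaps. The median distance between neighbours was 6196 bp in replicate 1 and 5418 bp in replicate 2, while the mean distance was 24296 and 24007 bp. Neighbours lay within 2 kb of each other in 297 of 929 spacings in replicate 1 (32.0%) and in 321 of 955 in replicate 2 (33.6%). Larger runs were rare. Clusters, taken as 5 or more regions with neighbours at most 2 kb apart, numbered 6 in replicate 1 and 10 in replicate 2 and held 32 and 56 regions. That is 3.44% and 5.86% of the arm's regions, beside 5.92% and 6.50% of the regions of 2L, 3L and X. In each replicate 3R lay below 2L, which had 5.87% and 8.46%, and below X, which had 7.14% and 6.50%, while 3L, with 4.75% and 4.79%, lay between the replicate values of 3R. In the series-level set the order with 2L turned, with 3.87% on 3R and 3.52% on 2L. There 3L, with 4.625%, and X, with 7.23%, lay above 3R.

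Only 4 clusters were found as such in both replicates, and within them the regions matched nearly edge for edge. The first ran from 19857620 to 19890319 in replicate 1 with 6 regions and from 19857667 to 19890176 in replicate 2, also with 6. Its regions were 5968, 7141, 3378, 2801, 2065 and 6494 bp wide in replicate 1 and 5896, 6319, 3407, 2302, 1872 and 6271 bp in replicate 2. In both libraries the region next to last had the lowest score (0.523 and 0.678) and its last the highest (2.20 and 2.10). The second ran from 1399590 to 1442568, with 5 regions in replicate 1 that covered 92.1% of it. Replicate 2 had 6 there, because it divided the region from 1426838 to 1436927 (10090 bp) into parts of 5100 and 4696 bp. The third, from 2888672 to 2915171, had 5 regions in each replicate with scores from 1.31 to 2.22 in replicate 1 and from 1.26 to 2.26 in replicate 2. It opened directly at the end of an empty stretch of 166 kb, from 2722373 to 2888671. The fourth, from 20448108 to 20487847, set a broad domain of 18920 and 18699 bp (scores 2.29 and 2.14) among 4 narrower regions of 3224 to 7188 bp in replicate 1 and of 2973 to 6763 bp in replicate 2. Where a cluster was found in one list alone, the other list covered the same span to between 71.1% and 98.9%, with 3 to 6 regions.

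**Figure D4:**
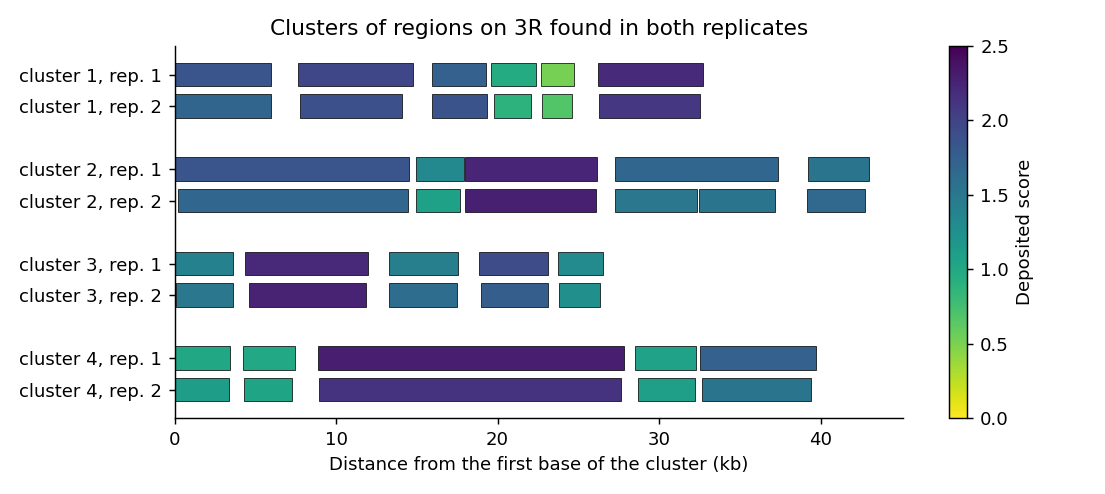
The 4 clusters of regions on 3R found in both replicates, drawn from the first base of each cluster in replicate 1 (horizontal axis, kb), with replicate 1 above replicate 2 and each bar a region coloured by its deposited score. The bars of both replicates line up, with 1 region of the second cluster, 10090 bp wide, divided in replicate 2.

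Broad domains made up a fair part of the marked sequence. Regions of 10 kb or more numbered 108 of 930 in replicate 1 (11.6%) and 78 of 956 in replicate 2 (8.16%), beside 10.3% and 6.58% of the regions of 2L, 3L and X. They held 27.4% and 21.0% of the covered bases of 3R, against 23.9% and 16.7% on 2L, 28.3% and 19.4% on 3L and 22.6% and 14.2% on X. Replicate 1, with its wider regions, had the higher share on every arm. Within each replicate 3R lay above 2L and X, and with 3L the order differed between replicates. Their scores were high and their low tail was missing. The median score was 1.87 in both replicates, against 1.52 and 1.54 for narrower regions, and the lowest was 1.22 and 1.15, against 0.211 and 0.414. All 108 of replicate 1 overlapped a replicate 2 region, but 36 of them were divided there into more than 1 region. All 78 of replicate 2 overlapped a replicate 1 region that was itself at least 10 kb wide, and 1 of them was divided in replicate 1.

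The 5 longest replicate 1 regions that matched a replicate 2 region over 50% of both lengths were spread over the arm. The longest, from 17840953 to 17865390 (24438 bp, score 2.12), stood alone in its surroundings, with its nearest neighbour 89722 bp away. Replicate 2 showed it as 2 regions of 19128 and 4017 bp (scores 2.13 and 1.69). The next, from 18424832 to 18449016 (24185 bp, score 1.95), was also divided, into 18786 and 4784 bp (scores 1.93 and 2.07). Replicate 2 gave the other 3 as single regions. These ran from 20060858 to 20084562 (23705 and 23615 bp, scores 2.47 and 2.34), from 5503515 to 5525417 (21903 and 21726 bp, scores 1.64 and 1.80) and from 1353393 to 1373158 (19766 and 19415 bp, scores 2.03 and 1.93).

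The highest scores were not those of the widest regions, with 1 exception among the 10. In replicate 1 they stood at 26706508 to 26713563 (7056 bp, score 2.61), 22949504 to 22955067 (5564 bp, 2.49), 20060858 to 20084562 (23705 bp, 2.47), 3799157 to 3803434 (4278 bp, 2.46) and 7577277 to 7582742 (5466 bp, 2.45). In replicate 2 they stood at 21478052 to 21484122 (6071 bp, score 2.48), 26706592 to 26713359 (6768 bp, 2.47), 17049968 to 17056613 (6646 bp, 2.45), 611214 to 621490 (10277 bp, 2.42) and 14475263 to 14483748 (8486 bp, 2.35). The region near 26.7 Mb was the one shared by both sets of 5, although it lay in the emptiest 1 Mb block of the arm. Each of the 10 had exactly 1 partner in the other replicate, which covered at least 95.9% of it.

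Isolated regions, 50 kb or more from any neighbour of their list, were few. Replicate 1 had 29 on 3R (3.12% of its regions) and replicate 2 had 23 (2.41%), beside 1.87% and 1.55% of the regions of 2L, 3L and X. Counted by arm, the numbers were 29 and 23 on 3R, 15 and 13 on 2L, 16 and 14 on 3L, and 11 and 9 on X. The mean share on 3R, 2.76% ± 0.504, lay above 1.99% ± 0.221 on 2L, 1.89% ± 0.238 on 3L and 1.28% ± 0.215 on X (SD, n = 2 each). The lower replicate value of 3R, 2.41%, was above the highest of another arm, 2.15% on 2L. Among the higher-scored 50% of regions that order was lost, with 7.17% on 3R and 9.34% on 2L. Of the 29 in replicate 1, 26 overlapped a replicate 2 region and 21 of these were isolated there too. As a set they were narrower and lower in score, with medians of 3504 bp and 1.05 in replicate 1 and 2866 bp and 0.939 in replicate 2, against 4672.5 bp and 1.60 and 4322 bp and 1.59 for all regions of the arm. Regions with a neighbour within 2 kb had medians of 4994 bp and 1.64 in replicate 1 and 4583 bp and 1.61 in replicate 2. Score and width rise together in both lists, so these are not separate differences.

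**Figure D5:**
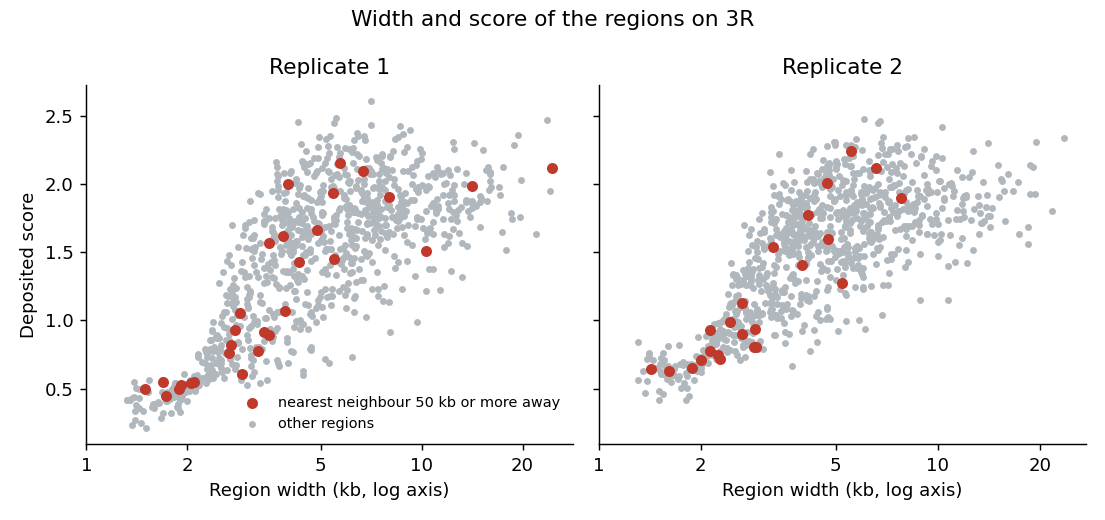
Deposited score (vertical axis) against width (horizontal axis, kb, log scale) for the 930 regions of 3R in replicate 1 (left) and the 956 in replicate 2 (right), with the 29 and 23 isolated regions in red. Most isolated regions lie among the narrow, low-scored ones, with medians of 1.05 and 0.939, and a few lie among the wide, high-scored ones.

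The longest stretch that held isolated regions only ran from 2296128 to 2888671, a span of 593 kb with 3 regions in replicate 1. The first of them, from 2472253 to 2486363 (14111 bp, score 1.99), was a broad domain between gaps of 176 and 147 kb, and replicate 2 divided it into 10826 and 3217 bp (scores 2.00 and 1.73). The other 2 were small, from 2633001 to 2636504 (3504 and 2639 bp, scores 0.893 and 0.902) and from 2719337 to 2722255 (2919 and 2275 bp, scores 0.609 and 0.720). In the series-level set, 2 regions lay inside the gap of 176 kb. The second stretch, from 17704882 to 18182960 (478 kb), held the longest domain of the arm, described above, and regions of 3381 and 2911 bp from 17955113 (scores 0.918 and 0.802) and of 3261 and 2866 bp from 18118598 (scores 0.777 and 0.807). In the third, from 1686595 to 2132553 (446 kb), a high-scored region from 1824945 to 1831638 (6694 and 6565 bp, scores 2.10 and 2.12) stood 138 kb from its neighbour, and a low one began at 2031862 (2098 and 2134 bp, scores 0.546 and 0.932).

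The fourth stretch, from 21887940 to 22277850 (390 kb), held regions of 3516 and 3263 bp (scores 1.57 and 1.54) and of 4888 and 4734 bp (scores 1.67 and 1.60). The fifth, from 3358947 to 3712550 (354 kb), held 3 regions of 2048 to 2785 bp in replicate 1 and of 2127 to 2653 bp in replicate 2, none of which scored above 1.13. The smallest islands between long gaps, chosen here after their values were seen, were narrow by that choice, and their scores were low. One lay from 12634488 to 12636216 in replicate 1 (1729 bp, score 0.445) and from 12634064 to 12635948 in replicate 2 (1885 bp, score 0.649), between gaps of 154 and 116 kb. The other lay from 19348648 to 19350343 (1696 bp, score 0.546) and to 19350664 in replicate 2 (2009 bp, score 0.712), between gaps of 141 and 155 kb. Wider islands of 10 kb or less scored higher, from 13847122 (1.43 and 1.41), 1824945 (2.10 and 2.12) and 26876345 (1.91 and 1.90). That from 22540477 to 22549468 held regions scored 0.716 and 2.26 in replicate 1 and 0.890 and 1.94 in replicate 2.

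The replicates matched closely on 3R. Of the 5.36 Mb covered in either replicate, 4.89 Mb or 91.3% was covered in both, beside 90.4% on 2L, 91.6% on 3L and 89.8% on X. A replicate 2 region overlapped 876 of 930 replicate 1 regions (94.2%, 95% Wilson interval 92.5 to 95.5), beside 93.4% on 2L, 3L and X. A replicate 1 region overlapped 946 of 956 replicate 2 regions (99.0%, interval 98.1 to 99.4), beside 99.2% on the other arms. The intervals cover counting error only. Among 797 regions with exactly 1 partner each way, both edges lay within 200 bp of the partner's in 418 (52.4%), and the replicate 1 region was the wider one in 679 (85.2%), by a median of 212 bp over all pairs. Replicate 2 divided 72 replicate 1 regions, and replicate 1 divided 5 replicate 2 regions.

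The regions found in 1 replicate alone were small. The 54 of replicate 1 were 1817 bp wide and scored 0.498 at the median, and none scored above 0.760. The widest were 8496354 to 8500116 (3763 bp, score 0.665), 13269939 to 13273090 (3152 bp, 0.620) and 20576478 to 20579604 (3127 bp, 0.590). The 10 of replicate 2 had medians of 1570 bp and 0.679, and the widest were 16686046 to 16688765 (2720 bp, score 0.819), 14417773 to 14419547 (1775 bp, 0.693) and 21501949 to 21503621 (1673 bp, 0.664). Narrow regions also have fewer bases with which to meet an overlap.

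The series-level set, for which no source used here says how it was made, held 955 regions on 3R and covered 5.46 Mb, of which 97.8% lay in one or both replicates. Of these regions 857 overlapped both replicates (89.7%), 54 replicate 1 alone, 10 replicate 2 alone and 34 neither. The 34 were narrow and low, with medians of 1325 bp and 0.366. Of the 61 gaps of 100 kb or more, 4 held a region of this set, 6 such regions in all.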

How the data were processed

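H3K36me3 ChIP-seq was analysed in 2 ChIP libraries of 14 to 16 h embryos. The 2 input libraries have no values of their own here. Bowtie 0.12.7 appears in the submitters' processing notes. Which caller and threshold gave the regions, and how the series-level set was made, is stated in no source used here. Coordinates are FlyBase release 5 per the file headers, and each deposited list gives a start, an end and a score, the authors' deposited score per region, of unstated scale. The region starts and ends are as the authors deposited them, in bases. No read depth is given.

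Regions named 3R were taken with Python 3.11.15, numpy 2.4.6 and scipy 1.17.1. The last region of 3L was ended at the sequence end. Covered share is the percent of an arm's length in the headers. Gaps lie between regions of both replicates joined. Blocks at arm ends shorter than 0.5 Mb were left out of block ranges. Interval functions were tested on simulated data. Named by rule were the 5 longest matched regions, the 5 highest scores per replicate, the 5 longest gaps and isolated stretches, clusters in both replicates, the 3 fullest and emptiest blocks, the first and last region, and the 3 widest unshared regions per replicate. The members and lists were chosen with earlier results of these data known. Tests were not made, since the 2 libraries are the only replicates of each value. Genes were not assigned, because the gene table is of release 6. Alternatives were a higher-scored 50% of regions, merging within 1 kb, other thresholds, leaving out a replicate, the series-level set and, added after seeing the data, leaving out the 3 Mb nearest each centromere. Main measures added outside the plan were gaps of 200 kb or more, the isolated share and coverage of the 1 Mb nearest the centromere.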

Additional observations from a re-analysis of the deposited data

How the results depend on the processing

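The lead of 3R in covered share depended on counting the centromere ends: without the 3 Mb nearest each centromere, chosen after seeing the data, that share was 18.1% on 3R, against 16.9% on 2L, 18.4% on 3L and 18.8% on X, and the ratio of 3R to those arms together was 1.00, against 1.07 ± 0.00684 with whole arms (SD, n = 2). The lead over X was also lost with whole arms in the series-level set, where 3R had 19.57% and X 19.59%. The share in gaps of 200 kb or more was lowest on 3R in 8 of 8 settings, but by less in some, with 9.79% on 3R and 11.8% on X without those 3 Mb and 26.8% and 27.6% on these arms among the higher-scored 50% of regions, and the coverage of the 1 Mb nearest the centromere was highest on 3R in 6 of 6. The share in gaps of 100 kb or more was lowest on 3R in only 3 of 8 settings, and isolated regions were most frequent there in 6 of 7, the exception being the higher-scored 50% of regions (7.17% on 3R, 9.34% on 2L, 6.76% on 3L and 8.33% on X). Each of these tallies includes the main setting and the settings that leave out a replicate. Merging within 1 kb cannot change a gap of 100 kb or more. The tallies therefore hold fewer separate checks than settings. Of the measures tallied, only gaps of 100 kb or more were planned as a main measure. A gap threshold of 200 kb was planned only as an alternative. The nearest 1 Mb and the share of isolated regions were added outside the plan. Over 23 results and 139 alternatives, 71 values stayed within the replicate spread, or for counts within 1.5 times, and 68 did not. Of the 71, 38 came from leaving out a replicate, which cannot tell of stability. In what follows the cause was not tested, except that a cut on score removes regions and a threshold changes what is counted.

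With the higher-scored 50% of regions, covered share was 12.6%, density 17.7 regions per Mb, median width 6180.5 bp, median score 1.85, the ratio to the other arms 1.11, clusters 0.5 per replicate with 0.504% of regions, and regions of 10 kb or more held 32.1% of covered bases. Split into 3 equal lengths from the centromere, the arm was then covered to 13.3%, 11.8% and 12.7%, the nearest 1 Mb to 13.7%, the fullest and emptiest blocks to 23.4% and 4.77%. Gaps of 100 kb or more took 54.9%, gaps of 200 kb or more (26) took 26.8%, 83.6% of covered bases were in both replicates, and 91.3% and 94.8% of regions were shared. With regions within 1 kb merged, there were 26.1 regions per Mb of median width 5613.75 bp, 0 clusters with 0% of regions, 160 regions of 10 kb or more with 46.9% of bases, 4.54% isolated and 91.7% of bases in both. In the series-level set, covered share was 19.6%, that of the 3 equal lengths 20.8%, 18.6% and 19.3%, the nearest 1 Mb 22.1%, the fullest block 35.0%, the median score 1.53, the ratio 1.05, the share of bases in regions of 10 kb or more 28.7% and gaps of 200 kb or more 8.74%.

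Clusters numbered 1.5 (0.837% of regions) with neighbours within 1 kb, 22 (14.4%) within 5 kb and 71.5 (26.5%) with at least 3 regions. Thresholds of 8 and 15 kb gave 159 and 21.5 long regions with 35.6% and 7.54% of bases. Gap thresholds of 50 and 200 kb gave 128 and 11 gaps with 52.9% and 9.45% of the arm. Gaps with no region shared by both replicates took 41.2% (100 kb) and 9.61% (200 kb). Isolation at 30 and 80 kb gave 5.89% and 1.38%. Blocks of 0.5 Mb ranged from 4.92% to 42.9% and blocks of 2 Mb from 12.1% to 26.4%. The ratio to 2L and 3L alone was 1.09, the nearest 2 Mb were covered to 24.9%, and an overlap of 50% of both lengths left 90.4% of replicate 2 regions shared. Leaving out either replicate gave shares in gaps of 100 kb or more from 36.5% to 41.0%, and of 200 kb or more from 9.46% to 9.62%. These gap shares come from the joined regions and are not means, and leaving out replicate 1 moved both by more than the SD between replicates. For a mean of 2 replicates a change of this kind always stays within an SD. Coverage of the Hox complexes was not run, since no annotation of release 5 was used here. No paired analysis was possible because no input has values to set beside its ChIP library. Arms were compared within each library. Without counts of reads, a weak mark between regions and no mark look alike.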
